A study of Mus musculus with 6 samples.

Results

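The high mobility group genes described here are 10 of the 46078 gene rows in the count tables: Hmga1, its near-identical copy Hmga1b, Hmga2, Hmgn1, Hmgn2, Hmgn3, Hmgn5, Hmgb1, Hmgb2 and Hmgb3. They were chosen by symbol as a gene family, for the low level of Hmga1b in miR-34 knockout adenomas, so the genotype difference of Hmga1b is a description and supports nothing further. RNA was sequenced from adenomas of the small intestine of 18-week-old C57BL6/SV129 mice. The KO group was miR-34a/b/c-/-;ApcMin/+ (3 mice) and the WT group was miR-34a/b/c+/+;ApcMin/+ (3 mice). Every mouse of both groups thus carried ApcMin, a mutant allele of the Wnt antagonist Apc with which intestinal polyps form. Each library was a pool of 3 tumors from 1 mouse, so the mouse is the replicate and differences between tumors of a mouse are not seen. Whether the mice were littermates is not given in the labels.

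High mobility group proteins are abundant non-histone chromatin proteins of 3 structural families. HMGA proteins bind the minor groove of AT-rich DNA through short AT-hooks, are high in embryos and tumors, and act as architectural factors at enhancers. HMGN proteins bind the nucleosome core and counteract compaction by linker histones. HMGB proteins bend DNA through HMG boxes, and HMGB1 released from dying or activated cells is also an alarmin that signals through RAGE and Toll-like receptors. miR-34a, miR-34b and miR-34c are p53-induced microRNAs with a shared seed, and let-7 is the best-known microRNA repressor of Hmga2.

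The mature miR-34 sequences removed in the KO mice are shown first, with the seed (bases 2 to 8) in capitals. Sequence and position are from RefSeq on GRCm38.p6, and miR-34c is given by name alone.
miR-34a-5p (chr4:150068473-150068494, plus strand): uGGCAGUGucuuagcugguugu
miR-34b-5p (chr9:51103610-51103632, minus strand): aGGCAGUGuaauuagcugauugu
The match to this seed, CACTGCC, was searched on the sense strand of the longest GENCODE M21 3′ UTR of each gene. It occurred once among the 10 genes, at base 1567 of the 1872-base 3′ UTR of Hmgb2, shown here because that 3′ UTR alone among the 10 searched holds the letters the deleted microRNAs would read.
Hmgb2 3′ UTR: gcgtgcaccacCACTGCCtggcttaaacc
Of all 21127 3′ UTRs, 15.5% held CACTGCC, and of the 3389 with 80% to 125% of the Hmgb2 length 20.5% did. The longer match CACTGCC followed by A, which overlaps the shorter one, occurred in none of the 10 and in 5.42% of all 3′ UTRs. The let-7 match CTACCTC occurred 4 times in the 3014-base 3′ UTR of Hmga2 and once each in Hmga1 and Hmga1b. It was in 17.1% of 3′ UTRs of the length of Hmga2 and in 10.1% of all. A match is a stretch of letters and not a measured site.

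The next sequences show how little separates Hmga1 from Hmga1b. Transcripts of 1681 bases (Hmga1) and 1626 bases (Hmga1b) aligned over 1602 bases at 99.8% identity in GENCODE M21, with 3 substitutions and no gap. Counted from base 1 at the 5′ end of the Hmga1 transcript, with the Hmga1 base first, these were A736G, A863G and G1325T, all in the 3′ UTR. The 321 coding bases held 0 differences. The differing base is in capitals, in the order of the substitutions.
Hmga1: ttagccgcagcccgAcctgctgcgcacct
Hmga1b: ttagccgcagcccgGcctgctgcgcacct
Hmga1: ccttaaggggccccAgccccatctcactc
Hmga1b: ccttaaggggccccGgccccatctcactc
Hmga1: ggttgtgttgttttGtttttgttccatgt
Hmga1b: ggttgtgttgttttTtttttgttccatgt
Of all 50-base stretches in the Hmga1b transcript, 89% were also in an Hmga1 transcript, and of the 100-base stretches 78.8% were. In the other direction, 69.1% of the 50-base stretches of the longest Hmga1 transcript were in Hmga1b. No source used here says how the authors' counting treated reads that fit both places, so the separate levels of Hmga1 and Hmga1b are uncertain and their sum is given beside them. The sum is uncertain too if such reads were dropped or counted in both rows.

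Library totals ranged from 26375035 to 38354355 counts. The first principal component (40.8% of the variance) placed KO replicates 1 and 3 at -53 and -49.2 and KO replicate 2 at 27.1, with the WT replicates between -0.3 and 58.5. Judged by counts of Xist and Y-linked genes, KO replicate 2 and WT replicate 3 were male and the other mice female. The rows of Mir34a, Mir34b and Mir34c held 0 counts in all 6 libraries, WT included, so they do not check the genotype labels. All 8 epithelial markers were detected in every library, with summed levels of 10921 to 13989 CPM (counts scaled to library size) in KO and 12576 to 16056 CPM in WT. In bulk tumors, fewer cells of a type and less RNA per cell cannot be told apart.

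All 10 genes passed the filter on low counts, Hmga1b through its WT counts alone. Of the 10, 1 was called between KO and WT at an adjusted p of 0.05 (edgeR quasi-likelihood test, Benjamini-Hochberg over 17254 genes), and it was Hmga1b, the gene the family was chosen for. Of all tested genes, 0.0927% were called. Of the 9 others, 0 were called by edgeR, and 2 of them (Hmga1 and Hmga2) had an unadjusted p below 0.05, as 5.85% of all tested genes did. DESeq2 called Hmga1 as well as Hmga1b, with 0.638% of all its tested genes called, and limma-voom called Hmga1b alone, with 0.122% called. Of the 10 genes, 8 had a positive log2 fold change (KO over WT) and 2 a negative one. The median was 0.16 over the 10 and 0.19 over the 9 without Hmga1b, against 0.01 over all tested genes.

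**Figure D1:**
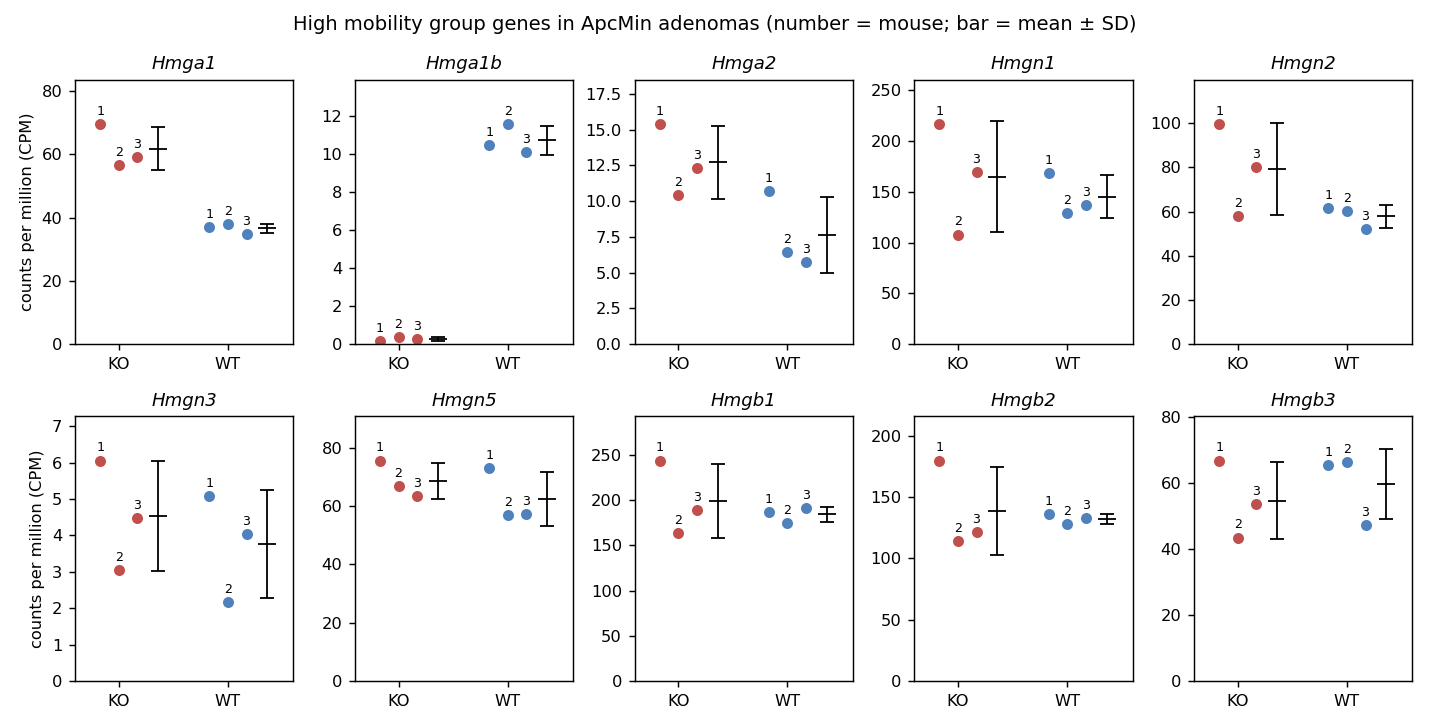
Level of each high mobility group gene in CPM (y axes, each with its own scale starting at 0) in KO and WT adenomas. Points are single mice, numbered by replicate, and bars are mean ± SD (n = 3 each). Hmga1b at 0.176 to 0.363 CPM in KO and 10.1 to 11.6 CPM in WT, and Hmga1 at 56.7 to 69.6 CPM in KO and 34.9 to 37.9 CPM in WT, are the genes whose groups do not overlap.

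Among the AT-hook genes, Hmga1b (ENSMUSG00000078249, mm10 chromosome 11, 120762794 to 120764419) was listed with 5, 11 and 11 counts in KO replicates 1, 2 and 3, against 339, 369 and 360 counts in WT replicates 1, 2 and 3. Its levels were 0.176, 0.363 and 0.264 CPM in KO and 10.5, 11.6 and 10.1 CPM in WT. Every KO library was far below every WT library. The means were 0.268 ± 0.0935 CPM in KO and 10.7 ± 0.788 CPM in WT (SD, n = 3 each), a 40.1-fold higher mean in WT and a log2 fold change of -5.30 ± 0.32 (SE).

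Hmga1 (ENSMUSG00000046711, chromosome 17, 27556620 to 27563674) had 1976, 1717 and 2459 counts in KO and 1189, 1206 and 1248 counts in WT. This was 69.6, 56.7 and 59.0 CPM in KO, against 36.9, 37.9 and 34.9 CPM in WT. The lowest KO library was above the highest WT library, and the values ran opposite to those of Hmga1b. The means were 61.8 ± 6.91 CPM in KO and 36.6 ± 1.54 CPM in WT, with a log2 fold change of 0.75 ± 0.12. It missed the edgeR threshold (adjusted p = 0.245) and passed in DESeq2 (adjusted p = 0.000154). Of the 10 genes, 2 did not overlap between genotypes (1 higher and 1 lower), where 11.2% of all tested genes did not (5.86% higher and 5.34% lower). Since Hmga1b was chosen for its difference, the count to read is 1 of the 9 others, which is near that share.

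Taken per copy, Hmga1b held 0.252%, 0.637% and 0.445% of the counts of both copies in KO replicates 1, 2 and 3 and 22.2%, 23.4% and 22.4% in WT replicates 1, 2 and 3. The 95% Wilson intervals, which cover counting error alone, ran from 0.108% to 1.14% over the KO libraries and from 20.2% to 25.6% over the WT libraries. Every KO share was below every WT share. The sum of both copies was 69.8, 57.0 and 59.3 CPM in KO and 47.5, 49.5 and 45.0 CPM in WT. The summed groups also did not overlap. Their means were 62.1 ± 6.83 CPM in KO and 47.3 ± 2.27 CPM in WT, a log2 fold change of 0.39 ± 0.12, which missed the threshold in edgeR (adjusted p = 0.793), in DESeq2 (adjusted p = 0.358) and in every other fit run. In level, Hmga1 was 25.2 CPM higher in KO, Hmga1b differed by -10.5 CPM and the sum was 14.7 CPM higher in KO.

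**Figure D2:**
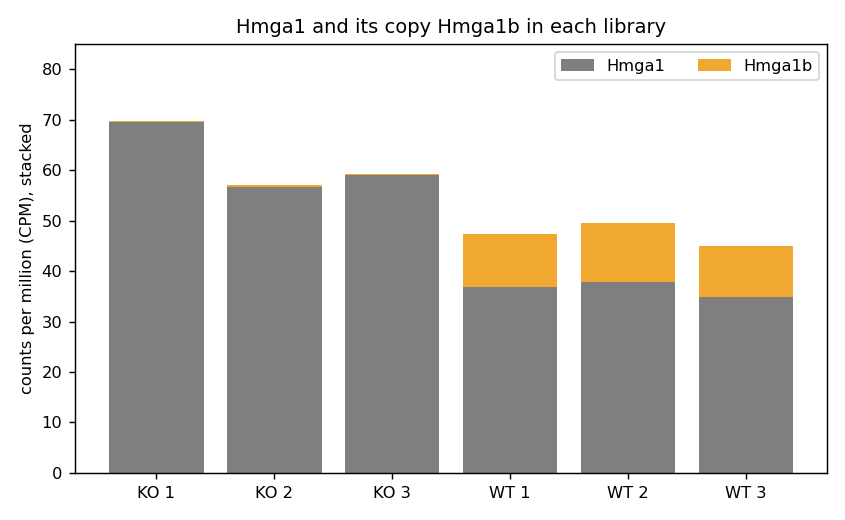
Stacked CPM (y axis, from 0) of Hmga1 and of its copy Hmga1b in each library, KO replicates left of WT replicates. Hmga1b is 0.252% to 0.637% of the counts of both copies in KO and 22.2% to 23.4% in WT, and the summed bar is 57.0 to 69.8 CPM in KO and 45.0 to 49.5 CPM in WT.

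Hmga2 (chromosome 10, 120361275 to 120476469), the AT-hook gene that is mostly fetal and returns in many tumors, was at 15.4, 10.4 and 12.3 CPM in KO and 10.7, 6.45 and 5.74 CPM in WT. The groups overlapped, since WT replicate 1 was above KO replicate 2. The means were 12.7 ± 2.56 CPM in KO and 7.62 ± 2.68 CPM in WT, with a log2 fold change of 0.74 ± 0.29 that missed the adjusted threshold. The summed Hmga level was 74.7 ± 9.34 CPM in KO and 55.0 ± 3.81 CPM in WT.

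Transcripts on the opposite strand overlap some of these loci, and no source used here says whether counting used strand, so their reads cannot be told apart from those of the members. AI413582 overlaps Hmga1 and had 634 counts over the KO libraries and 533 over the WT libraries, beside 9795 counts of Hmga1 in all. Uspl1 overlaps Hmgb1 and had 3386 counts in KO and 3331 in WT, beside 38135 counts of Hmgb1. The overlapping 1700006J14Rik and 9230105E05Rik at Hmga2 had 23 and 14 counts in KO and 14 and 2 in WT, beside 2017 counts of Hmga2.

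Among the nucleosome-binding genes, Hmgn2 (chromosome 4, 133964738 to 133968650) was at 99.7, 58.0 and 80.1 CPM in KO and 61.4, 60.2 and 52.0 CPM in WT. KO replicates 1 and 3 were above every WT library and KO replicate 2 lay within the WT range. The log2 fold change was 0.46 ± 0.20. Hmgn1 (chromosome 16, 96120618 to 96127729), which modulates histone phosphorylation and acetylation, was at 217, 108 and 170 CPM in KO and 169, 129 and 137 CPM in WT. The KO libraries spanned the whole WT range, and the log2 fold change was 0.19 ± 0.26.

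Hmgn5 (chromosome X, 109004534 to 109013404), the family member with a long acidic tail, averaged 68.7 ± 6.27 CPM in KO and 62.4 ± 9.19 CPM in WT, a log2 fold change of 0.14 ± 0.14. Hmgn3 (chromosome 9, 83109948 to 83146685) was the lowest expressed of the Hmgn genes, at 4.53 ± 1.51 CPM in KO and 3.77 ± 1.48 CPM in WT, with a log2 fold change of 0.27 ± 0.40. In both genes the genotypes overlapped. The summed Hmgn level was 318 ± 81.4 CPM in KO and 269 ± 34.0 CPM in WT.

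Among the HMG-box genes, Hmgb1 (chromosome 5, 149046702 to 149184489) was at 244, 164 and 189 CPM in KO and 187, 175 and 191 CPM in WT. KO replicate 2 was the lowest of the 6 libraries and KO replicate 1 the highest. The log2 fold change was 0.11 ± 0.17. Hmgb2 (chromosome 8, 57511843 to 57515999), a paralog typical of dividing cells and the one with the CACTGCC letters, was at 180, 114 and 122 CPM in KO and 136, 128 and 133 CPM in WT. KO replicates 2 and 3 were below all WT libraries and KO replicate 1 above them, with a log2 fold change of 0.06 ± 0.19.

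Hmgb3 (chromosome X, 71555918 to 71560676), an X-linked paralog known from blood stem cells, was at 66.7, 43.4 and 53.4 CPM in KO and 65.2, 66.3 and 47.3 CPM in WT. Its log2 fold change of -0.13 ± 0.20 was the other negative value of the family. The summed Hmgb level was 392 ± 88.7 CPM in KO and 376 ± 10.2 CPM in WT, so the KO libraries were the more spread.

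**Figure D3:**
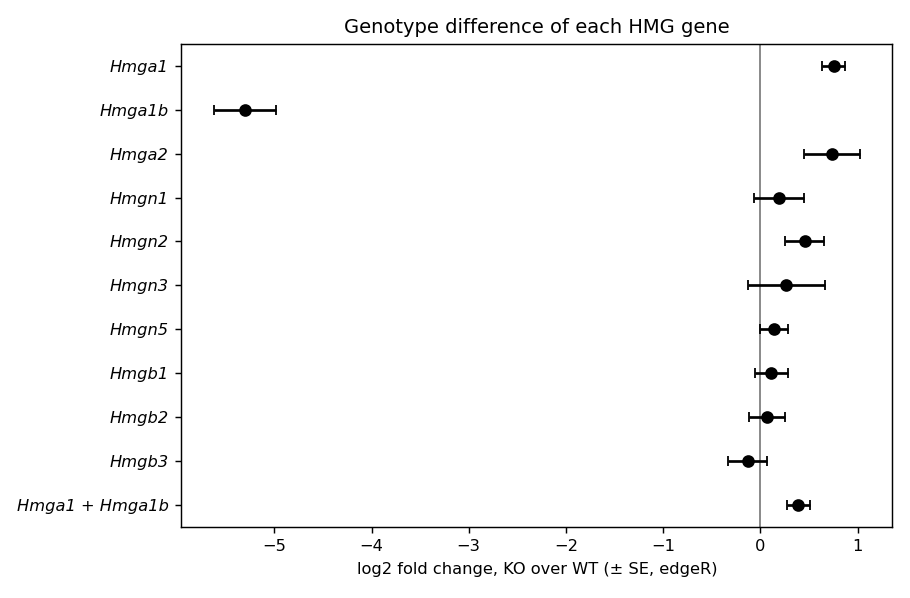
Log2 fold change of KO over WT (x axis) for each gene and for the summed counts of Hmga1 and Hmga1b, with bars of ± SE from edgeR. Hmga1b lies at -5.30, and the other genes lie between -0.13 (Hmgb3) and 0.75 (Hmga1).

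Scaled to length as CPM per kilobase of annotated exon, Hmgn1 was the highest gene, with a mean level of 51.2 in KO and 45.0 in WT. Hmgb2 followed at 46.1 in KO and 44.1 in WT, and Hmgb1 at 39.6 in KO and 36.7 in WT. Hmgn5 had 35.5 in KO and 32.3 in WT. Hmga1 stood at 29.1 in KO and 17.2 in WT, so it lay above Hmgn2 (25.9) and Hmgb3 (24.4) in KO and below them in WT (18.9 and 26.7). The places of Hmga1 and Hmga1b in this order are uncertain, because how their shared reads were counted is not known. Other places are uncertain to a lesser degree. The 50-base stretches also found in a transcript of another gene were 40.9% for Hmgb1, 34.2% for Hmgb3 and 22.5% for Hmgn2. They were 21.9% for Hmgb2 and 18.6% for Hmgn5, against 6.54% for Hmgn1 and 0% for Hmgn3. Hmgn3 (2.42 in KO and 2.01 in WT) and Hmga2 (1.87 in KO and 1.13 in WT) were low in both groups. Hmga1b was at 0.165 in KO and 6.60 in WT, last of the 10 in KO and above Hmgn3 and Hmga2 in WT. Neighbours from Hmgn1 to Hmgb1 differed by less than the SD among the KO libraries.

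Among the 9 genes other than Hmga1b, KO replicate 1 was the highest of the 6 libraries in 9 of 9, and KO replicate 2 was the lowest KO library in 8 of 9. Coefficients of variation of the 10 genes ran from 9.14% to 34.9% in KO and from 3.09% to 39.3% in WT. The median of the 10928 tested genes in the same range of levels was 15.3% in KO and 11.8% in WT. The summed level of 26 proliferation genes was also highest in KO replicate 1 and lowest of the KO libraries in KO replicate 2, with 2516, 1849 and 2239 CPM in KO replicates 1, 2 and 3 and 2013, 1801 and 1814 CPM in WT replicates 1, 2 and 3. The part of this in the levels of the Hmg genes was not tested.

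**Figure D4:**
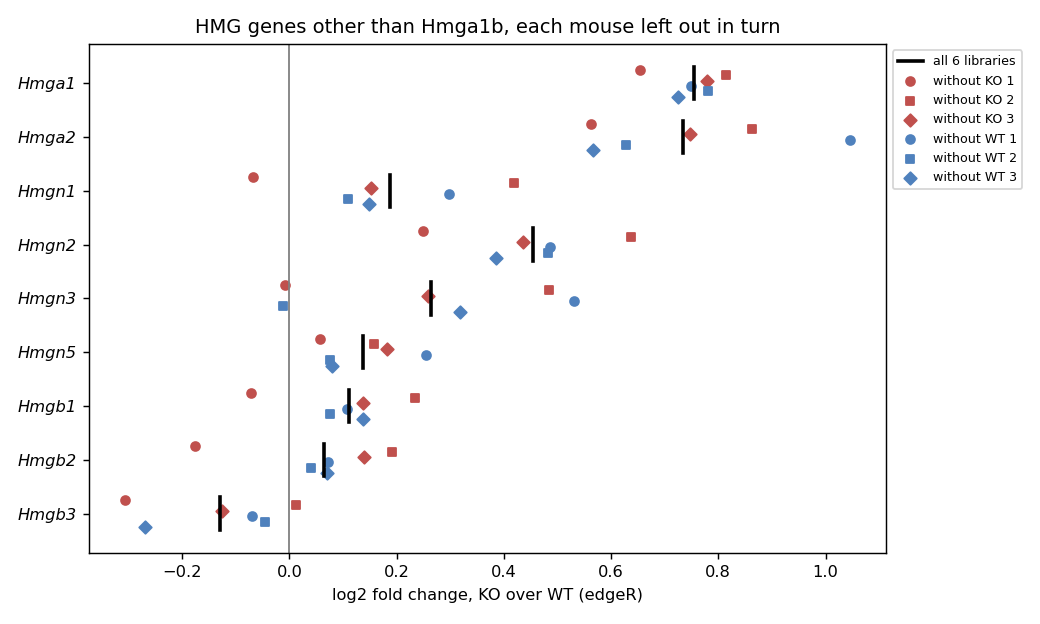
Log2 fold change of KO over WT (x axis) for the 9 genes other than Hmga1b, with all 6 libraries (black lines) and with each mouse left out in turn (symbols, red for a KO and blue for a WT mouse). Hmga1 stays between 0.65 and 0.81, and Hmgn1, Hmgb1 and Hmgb2 turn negative without KO replicate 1.

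Without KO replicate 1 the log2 fold change was -0.07 for Hmgn1, -0.01 for Hmgn3, -0.07 for Hmgb1 and -0.18 for Hmgb2, against positive values with all 6 libraries. Without WT replicate 2 the value of Hmgn3 was also negative (-0.01), and without KO replicate 2 that of Hmgb3 was positive (0.01). The log2 fold change stayed positive in every leave-one-out fit for Hmga1 (0.65 to 0.81), Hmga2 (0.56 to 1.05), Hmgn2 (0.25 to 0.64) and Hmgn5 (0.06 to 0.26). The range for Hmga1b, chosen for its difference in these same libraries, was -5.55 to -5.10, and it was called in each of these fits.

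Markers of other cell types also differed between the groups. The 6 smooth muscle markers summed to 524 to 628 CPM in KO and 203 to 471 CPM in WT, with 6 of 6 higher in KO by their log2 fold change. The 5 endothelial markers summed to 260 to 370 CPM in KO and 158 to 216 CPM in WT, with 5 of 5 higher. The 8 immune markers summed to 273 to 482 CPM in KO and 710 to 910 CPM in WT, with 3 of 8 higher in KO, and the gap lay in Cd74, the MHC class II invariant chain. Cd74 alone was at 152 to 361 CPM in KO and 597 to 781 CPM in WT. The 7 other immune markers overlapped, at 110 to 169 CPM in KO and 89.4 to 152 CPM in WT. The sums of the 7 fibroblast markers overlapped, at 671 to 2512 CPM in KO and 400 to 1252 CPM in WT, with 7 of 7 higher in KO and a median log2 fold change of 0.76. Of the 8 epithelial markers, 1 was higher and 7 were lower in KO. In edgeR 0 of these markers passed, and DESeq2 called Cd74. An unadjusted p below 0.05 (edgeR) was found for 2 smooth muscle, 3 endothelial, 1 immune, 2 fibroblast and 0 epithelial markers, against 5.85% of all tested genes. No defining marker of these lists was at 0 in any library, and their part in the values of Hmga1 and the other Hmg genes was not tested.

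Many Hmg genes have further sequence copies, most of them processed pseudogenes, which are intronless copies of an mRNA. At 95% identity over at least 100 bases, 69 gene rows at another locus matched a member, apart from the match between Hmga1 and Hmga1b. Of these, 48 matched Hmgb1, 9 Hmgn2, 6 Hmgb2, 4 Hmgn1, 1 Hmgn5 and 1 Hmgb3. At least 1 count was found in 59 of them, 10 were at 0 throughout, and the median over the 69 was 9 counts in the 6 libraries together. Filtering left 5, of which 1 was called, where 0.0927% of all tested genes were. That copy passed the filter through its WT counts alone. Among the 69 copies, every KO library was below every WT library in 3 and above every WT library in 5. Over all tested genes the shares were 5.34% lower and 5.86% higher, though most of the 69 copies were not tested. The 5 higher copies had 6 to 51 counts in the 6 libraries together and did not pass the filter. The copies described next were chosen by level and lack of overlap or by counts, so they do not stand for all 69.

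The called copy was Gm10182 (chromosome 9, 22320314 to 22321410), a pseudogene 97.8% identical to Hmgn2 over 279 bases. It had 1, 1 and 0 counts in KO and 426, 358 and 332 counts in WT, or 0.0352, 0.0330 and 0 CPM in KO and 13.2, 11.3 and 9.29 CPM in WT. The count of 0 in KO replicate 3 allows up to 3 counts, or 0.0720 CPM. Its annotated 273-base transcript differs from Hmgn2 by a single gap of 6 bases, shown in capitals, with 0 substitutions.
Hmgn2: gaggttgtctgcTGTAAGtaaacctgctcc
Gm10182: gaggttgtctgctaaacctgctcc
Every 50-base stretch of the 273-base transcript of Gm10182 (100%) occurs in a transcript of another gene, and 22.5% of the stretches of Hmgn2 do, so the separate levels of these rows are uncertain too. The row of Gm10182 in the tables spans 1097 bases, so the compared transcript covers part of what was counted. Gm10182 and Hmga1b lie on different chromosomes and both were near 0 in KO. Chromosome 9 also holds miR-34b (51103610 to 51103632), deleted in the KO mice, and a link of Gm10182 to that locus was not tested. Of the members, Hmgn3 is on chromosome 9 too, and Hmgn2 is on chromosome 4 with miR-34a. Links of these were not tested either.

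Gm21596 (chromosome 2, 113919247 to 113920562) is 99.5% identical to Hmgb1 over 1317 bases. It had 22, 12 and 17 counts in KO and 285, 137 and 29 counts in WT, or 0.775, 0.396 and 0.408 CPM in KO and 8.85, 4.31 and 0.812 CPM in WT. The groups did not overlap, but WT replicate 3 was close to KO replicate 1. The log2 fold change of -3.15 ± 0.84 missed the edgeR threshold (adjusted p = 0.79). Of the 50-base stretches of Gm21596, 82% occur in a transcript of another gene, and of those of Hmgb1 40.9% do. The separate levels of Gm21596 and Hmgb1 are therefore uncertain too. The substitution is A176G, counted from the 5′ end of the Hmgb1 transcript with the Hmgb1 base first, and the alignment also has 6 gap bases.
Hmgb1: aaaggagatcctaaAaagccgagaggcaa
Gm21596: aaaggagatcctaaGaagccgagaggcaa
Gm11645 (chromosome 2, 143506411 to 143507059), 95.4% identical to Hmgb1 over 305 bases, had 5, 4 and 4 counts in KO and 277, 113 and 0 counts in WT. WT replicates 1 and 2 were thus high, whereas WT replicate 3 was at 0, which allows up to 0.0840 CPM, and the gene did not pass the filter.

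Gm14448 (chromosome X, 5885743 to 5885952), another Hmgb1 copy, was at 0.955 ± 0.211 CPM in KO and 0.929 ± 0.258 CPM in WT. Tmx3, a protein-coding gene that matches Hmgb2 over 147 bases at 95.2% identity, was at 63.6 ± 4.57 CPM in KO and 54.0 ± 9.86 CPM in WT. It is among the 69 by this short match alone. Of the 50-base stretches of its longest transcript, 0% occur in a transcript of another gene.

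**Figure D5:**
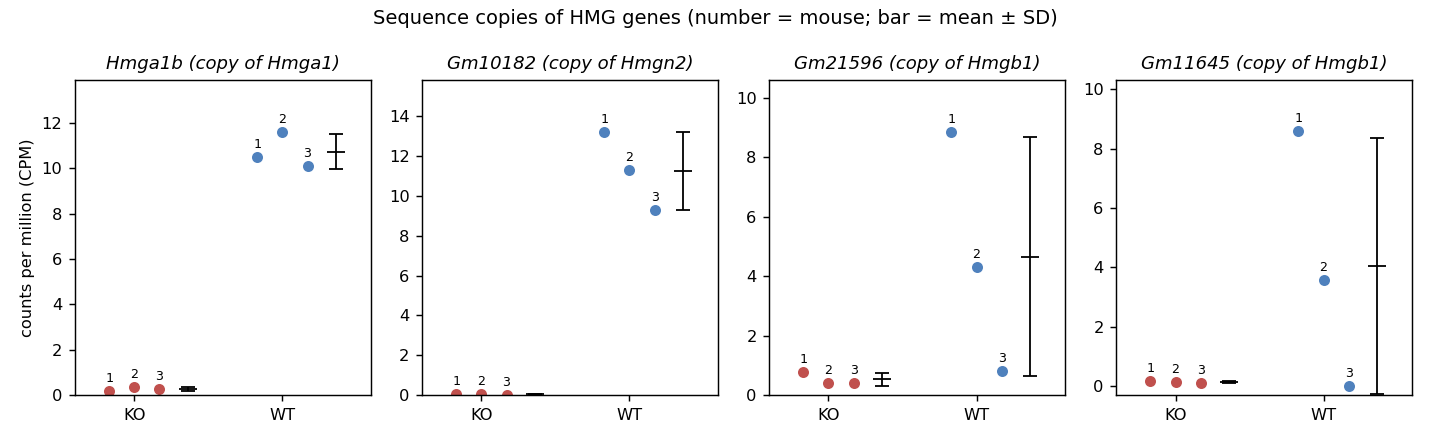
Level in CPM (y axes) of Hmga1b and of the copies Gm10182, Gm21596 and Gm11645 in KO and WT adenomas. Points are single mice, numbered by replicate, and bars are mean ± SD (n = 3 each; the bar of Gm11645 in WT reaches below 0 because its SD exceeds its mean). Hmga1b and Gm10182 are high in all 3 WT mice, and WT replicate 3 is at 0.812 CPM for Gm21596 and at 0 for Gm11645.

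The tested genes whose log2 CPM ran most like that of Hmga1b over the 6 libraries were the zinc finger gene Zfp429, the pseudogene Gm12901 and Gm10182, each with a Pearson r of 0.997 among 14538 genes of at least 1 CPM. Each is itself a called gene that is near 0 in KO, with 0.141 to 0.240 CPM in KO and 3.89 to 4.13 CPM in WT for Zfp429. The genes most like Hmga1 were Zc3h18 (r = 0.991), Zfp174 (0.986) and Cacna2d2 (0.985). Zc3h18 differed little in size, at 98.2 to 102 CPM in KO and 94.0 to 95 CPM in WT, and Cacna2d2, a calcium channel subunit, was at 1.45 to 2.11 CPM in KO and 0.621 to 0.756 CPM in WT. The points behind each r are 6 libraries in 2 groups, and they share the genotype.

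In 5 lists of related HMG-box genes, linker histones, chromatin partners, HMGB1 receptors and the let-7 axis, 0 of 78 tested genes passed in edgeR, DESeq2 or limma-voom. An unadjusted p below 0.05 was found for 5 of the 78, against 5.85% of all tested genes. Of 29 tested genes of the other HMG-box list, 20 were higher and 9 lower in KO, with a median log2 fold change of 0.12. Sox9, a progenitor factor of the crypt, was at 230 ± 125 CPM in KO and 209 ± 20.1 CPM in WT. Ssrp1, a subunit of the histone chaperone FACT, was at 181 ± 30.1 CPM in KO and 169 ± 11.3 CPM in WT, and Ubtf, the RNA polymerase I factor, at 175 ± 21 CPM in KO and 166 ± 7.80 CPM in WT. The smallest p values in this list belonged to Sox12 (13.6 ± 1.48 CPM in KO and 8.82 ± 0.863 CPM in WT) and the Wnt repressor Tcf7l1 (4.37 ± 1.05 CPM in KO and 2.40 ± 0.741 CPM in WT).

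Linker histones, which HMGN and HMGB proteins compete with on nucleosomes, had 1 of 6 tested genes higher and 5 lower in KO, with a median of -0.26. H1f0, the replication-independent linker histone, was at 352 ± 26.4 CPM in KO and 388 ± 39.6 CPM in WT. Hist1h1c was at 76.3 ± 14.3 CPM in KO and 90.7 ± 24.7 CPM in WT. None of the 6 had an unadjusted p below 0.05. Of the 20 tested chromatin partners, 18 were higher and 2 lower, with a median of 0.17. Top2a, the DNA topoisomerase stimulated by HMGB proteins, was at 337 ± 68.4 CPM in KO and 256 ± 27.2 CPM in WT. Hells, a chromatin remodeler, was at 69.0 ± 8.69 CPM in KO and 49.7 ± 6.49 CPM in WT, and the maintenance methyltransferase Dnmt1 at 122 ± 11.7 CPM in KO and 98.8 ± 7.78 CPM in WT.

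Of the 12 receptors and partners of HMGB1, 7 were higher and 5 lower, with a median of 0.10. Cd24a, a surface protein that binds HMGB1, was at 578 ± 186 CPM in KO and 489 ± 60.6 CPM in WT. Thrombomodulin (Thbd), which sequesters HMGB1, was at 54.1 ± 17.5 CPM in KO and 32.0 ± 13.7 CPM in WT. The Lin28, let-7 and Igf2bp genes, an axis known to regulate Hmga2, had 5 higher and 6 lower of 11 tested, with a median of -0.01. Dicer1, the microRNA processing enzyme, was at 77.5 ± 4.85 CPM in KO and 70.6 ± 8.28 CPM in WT, and Myc was at 76.8 ± 20.1 CPM in KO and 78.8 ± 13.2 CPM in WT.

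Of 26 proliferation genes, 23 were higher and 3 lower in KO, with a median of 0.24. Mki67 was at 229, 214 and 232 CPM in KO and 183, 172 and 178 CPM in WT, without overlap and without passing the adjusted threshold. In this list 3 of 26 genes did not overlap between genotypes, near the 11.2% of all tested genes. Of 20 miR-34 targets, 18 were higher and 2 lower, with a median of 0.28. Of these lists, 5 miR-34 targets and 2 proliferation genes had an unadjusted p below 0.05, against 5.85% of all tested genes, and none passed the adjusted threshold in edgeR, DESeq2 or limma-voom. Ccnd1 (cyclin D1) was at 139 ± 16.4 CPM in KO and 111 ± 9.88 CPM in WT, Met at 107 ± 19.2 CPM in KO and 114 ± 17.9 CPM in WT, and Axl at 45.0 ± 10.3 CPM in KO and 28.2 ± 6.40 CPM in WT. Over all tested genes, 51% were higher in KO.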

How the data were processed

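Counts of reads per Ensembl gene with coordinates were deposited by the authors, with a table for each library. The submitters' processing notes name TopHat2 2.1.0, HTSeq 0.6.1 and the build mm10. Not given in the sources used here are settings, strand, annotation release and the treatment of reads with several alignments. Of the 46078 identifiers, 45229 matched a symbol. Coordinates are those of the tables, counted from 1.

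Groups and replicate numbers came from the sample labels. Genes were filtered with filterByExpr and scaled by TMM (factors 0.914 to 1.09), and KO was compared with WT by edgeR 4.0.16 in R 4.3.3 (robust quasi-likelihood F-test, Benjamini-Hochberg at 0.05). SE is the size of the log2 fold change over the square root of F. CPM uses the TMM library sizes. The fit was tested on simulated data. Library pairs differed beyond sampling noise, so none is a duplicate.

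Copies were sought with BLAST 2.17.0 among GENCODE M21 transcripts, on which CPM per kilobase and 3′ UTRs also rest. Sequences of transcripts are from GENCODE M21. Limits for a count of 0 (3 counts) and intervals cover counting error only.

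The members and lists were chosen with earlier results of these data known. Named were all members, the copies with a mean of at least 1 CPM and no overlap or among the 5 with the most counts, and the 3 genes of each list with the highest level and the 2 with the smallest p, of which some are printed. For Hmga1b and for Hmga1, the 3 genes with the highest correlation of log2(CPM + 0.5) were named. Alternatives were DESeq2 1.42.0, limma 3.58.1 (voom), other scalings, no filter, a replicate block, a sex term, an adjusted p of 0.1, each mouse left out, identities of 90% and 98%, and stretches of 100 bases.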

Additional observations from a re-analysis of the deposited data

How the results depend on the processing

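Hmga1b was called in every fit run, and its log2 fold change lay between -5.55 and -5.10 when a mouse was left out. These fits reuse the libraries in which its difference was chosen, so they lend that difference no support. The number of genes called was 16, against 110 in DESeq2 and 9 to 41 with a mouse left out (9 without KO replicate 1, 10 without KO replicate 3, 41 without KO replicate 2 and 29 without WT replicate 3). DESeq2 called 2 members, Hmga1 being added. The lists had 0 calls, against 1 in DESeq2 and 0 to 1 with a mouse left out, the call being the immune marker Cd74 in DESeq2 and without KO replicate 2. Leaving a mouse out gave log2 fold changes of -0.068 to 0.42 for Hmgn1, -0.011 to 0.53 for Hmgn3, -0.071 to 0.235 for Hmgb1, -0.18 to 0.19 for Hmgb2 and -0.31 to 0.013 for Hmgb3. For Hmgn3 the sign also turned without WT replicate 2 and for Hmgb3 without KO replicate 2. The cause was not tested. Of 117 values of the 9 other members over 13 alternative settings, 110 kept direction and side of the threshold, 6 changed direction and 1 became called. As none of the 9 was called in the main fit, keeping the side of the threshold meant only staying uncalled. There were 69 copies at 95% identity, 125 at 90% and 35 at 98%, and 78.8% of Hmga1b stretches of 100 bases were in Hmga1. Same-numbered mice deviated with correlations of 0.22, 0.27 and 0.08, and the other KO and WT pairs with -0.30 to 0.18. Whether the numbers pair the samples is not given in the labels, and these values do not settle it. With a replicate block, 14 genes were called and Hmga1b was at -5.32. With 3 mice a group, small differences of the variable members are not resolved.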
